A study of Mus musculus with 8 samples.

Results

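The genes described here are 56 nucleolar ribosome biogenesis factors, the proteins that process, modify and fold pre-ribosomal RNA and assemble it with ribosomal proteins. They come from a list of symbols whose rule uses no expression value, though the list was drawn up with earlier results of these data known. Of the 56, 52 were measured by probe sets listed for 1 gene symbol, out of 22180 genes measured in this way. Fbl, Tsr1, Mrto4 and Rrp8 lie on probe sets listed for several symbols and are left out of all counts of expression, though not of the counts of promoters. Expression was profiled on 8 Affymetrix Mouse Gene ST 2.0 arrays of CD3+ T cells from C57BL/6J mice (generally 8 weeks old and sex-matched, per the methods), purified from spleens and lymph nodes by negative selection. The cells were naive and untreated, or naive with latrunculin A (LatA, which sequesters actin monomers so that filaments are lost). Others were stimulated with anti-CD3 and anti-CD28 antibodies in soluble form followed by anti-hamster IgG (sAb), in plate-immobilized form (iAb), or in soluble form with LatA (sAb+LatA), each for 3 h. For the 24 h arrays the cells were given the same stimuli for 3 h and then washed and kept in culture. The labels give the LatA array as a control without a time, and the methods give 3 h. Each condition has 1 array, so differences between conditions could not be checked against replicates, and precision is limited by this number of arrays. In these bulk samples, fewer cells with an mRNA and less of that mRNA per cell cannot be told apart.

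Ribosomes are built mainly in the nucleolus, where RNA polymerase I transcribes a long precursor of the ribosomal RNAs. Small nucleolar ribonucleoproteins (snoRNPs) guide the methylation (box C/D) and pseudouridylation (box H/ACA) of this precursor. A large complex named the small subunit (SSU) processome forms around its first part and yields the 40S precursor, and a succession of other factors assembles the 60S subunit. Resting T cells are small cells with little cytoplasm, and their activation through the T cell receptor and CD28 starts a phase of growth with enlarged nucleoli before the first division.

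All 52 measured factors were above background on all 8 arrays, where background is, for each array, the level below which 95% of 1432 chemosensory (odorant, taste and vomeronasal) receptor genes lay (log2 level 4.71 to 4.99). Per array, 11491 to 12287 genes lay above it. A gene entered the comparison of a pair of arrays when at least 1 of them had it above background. A gene is called higher or lower here when the arrays differ at least 1.5-fold, a descriptive threshold and not a test. The T cell label was borne out by its markers: all 8 measured of 10 listed (Cd3e among them, at 11.70 to 12.11) were above background on every array. Of 9 measured B cell markers 4 to 6 were above background, none over 6.60, and of 4 erythroid and platelet markers 1 to 3. Myeloid and dendritic cell markers were lower on the stimulated arrays, with 8 of 11 above background and a summed log2 level of 64.2 on the naive array, 55.8 to 59.0 at 3 h and 49.9 to 51.2 at 24 h. The NK cell list, which holds the T cell effector genes Eomes and Nkg7, had 3 or 4 of 6 markers above background and a summed log2 level of 35.0 on the naive array and 36.4 to 38.8 on the stimulated arrays. The part of these cells in the differences below was not tested. Centring each array on the median of its expressed genes removes between −0.11 (naive) and 0.13 (iAb at 24 h) log2 units, and this changes the direction in which most genes differ. Of the genes called between iAb and sAb at 3 h, 45.9% were higher as deposited and 61.1% after centring. Of those called between 24 h and 3 h with iAb, the shares were 62.9% and 36.0%. Against naive T cells the share of higher calls was 44.7% to 66.0% as deposited and 31.0% to 52.0% after centring.

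The promoters of the factors are described first, and whether they bear on the differences below was not tested. RefSeq promoter sequences (GRCm38.p6, 250 bases before to 50 bases after a start site, in the direction of transcription) were matched by symbol for 49 of the 56 factors, 5 of them with several start sites. Letters searched on both strands were CACGTG (the E-box, bound by Myc with Max and by other bHLH factors) and CCGGAAGT (the core read by ETS factors), along with the motif of NRF1, and none of these overlaps another in the sites printed. CACGTG was in at least 1 promoter of 9 of the 49 factors (18.4%), against 8.09% of the 27025 genes of the table and 11.9% of the 8324 of these above background on all arrays. It was in promoters of 17 of the 78 other listed ribosome biogenesis factors matched (21.8%) and of 10.3% of 58 cytosolic ribosomal proteins. The sites of these 9 factors with 10 bases on either side, where the window reaches that far, show how the letters around the shared core (in capitals) differ.
Grwd1, chr7:45830740-45830765 (- strand): gccggagtcgCACGTGtgaaaccgga
Imp4, chr1:34439698-34439723 (+ strand): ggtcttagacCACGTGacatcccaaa
Ltv1, chr10:13193094-13193119 (- strand): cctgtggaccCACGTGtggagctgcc
Nop2, chr6:125131813-125131838 (+ strand): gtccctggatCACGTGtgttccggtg
Pes1, chr11:3963967-3963992 (+ strand): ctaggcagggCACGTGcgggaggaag
Pno1, chr11:17211540-17211562 (- strand): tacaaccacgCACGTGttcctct
Rpf2, chr10:40246990-40247015 (- strand): gtaatcggtaCACGTGcattcgctaa
Tsr1, chr11:74898094-74898119 (+ strand): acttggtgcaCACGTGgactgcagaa
Wdr43, chr17:71616222-71616247 (+ strand): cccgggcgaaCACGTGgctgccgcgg
CCGGAAGT was in promoters of 14 of the 49 factors (28.6%), against 4.31% of all genes, 9.65% of the genes above background on all arrays, 24.4% of the other ribosome biogenesis factors and 19.0% of the ribosomal proteins. The NRF1 motif was in the promoter of 1 factor, Pno1 (2.04%), against 1.07% of all genes, 2.46% of the genes above background on all arrays and 2.56% of the other ribosome biogenesis factors. Between iAb and sAb at 3 h, the 8 measured factors with CACGTG had a median log2 difference of 1.06 (0.66 to 1.41). The 38 measured factors with a promoter and no CACGTG had 0.98 (0.17 to 1.54). For CCGGAAGT the medians stood the other way round. The 13 measured factors with it had 0.99 (0.17 to 1.35), and the 33 with a promoter and without it had 1.02 (0.32 to 1.54). In both splits the ranges of factors with and without the motif overlapped. Both arrangements are seen in the promoters of a pair of 60S factors that stood high in this comparison, Rpf2, with both CACGTG and CCGGAAGT, and Rrp1b, with none of the motifs searched, shown in lower case with motifs in capitals.
Rpf2, chr10:40246930-40247229 (- strand): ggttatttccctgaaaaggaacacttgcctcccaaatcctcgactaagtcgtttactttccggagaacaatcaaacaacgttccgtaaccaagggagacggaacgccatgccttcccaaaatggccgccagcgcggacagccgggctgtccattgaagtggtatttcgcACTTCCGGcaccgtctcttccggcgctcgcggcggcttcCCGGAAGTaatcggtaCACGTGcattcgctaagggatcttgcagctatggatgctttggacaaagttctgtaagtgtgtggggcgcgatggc
Rrp1b, chr17:32035912-32036211 (+ strand): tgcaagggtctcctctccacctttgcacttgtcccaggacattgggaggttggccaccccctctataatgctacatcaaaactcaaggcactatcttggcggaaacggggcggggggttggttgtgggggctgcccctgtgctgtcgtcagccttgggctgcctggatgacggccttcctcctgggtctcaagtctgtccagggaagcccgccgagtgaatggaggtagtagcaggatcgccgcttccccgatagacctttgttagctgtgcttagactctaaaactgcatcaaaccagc
A match gives the letters only, and binding was not measured.

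At 3 h nearly all factors stood in 1 order, lowest in naive T cells, then sAb, then sAb+LatA, and highest with iAb. This order held for 49 of 52 factors (all but Npm1, whose place depends on the probe set, Emg1 and Rpf1), against 15.6% of all genes. The median level of the 52 factors was 8.24 on the naive array, 8.32 with LatA alone, and 8.79 (sAb), 9.25 (sAb+LatA) and 9.72 (iAb) on the 3 h arrays. With LatA alone, 0 of 52 were called in either direction, against 0.919% and 1.14% of all genes called higher and lower. These differences ran from −0.25 to 0.52 with a median of 0.11. Against naive T cells, 23 of 52 factors were higher with sAb and 0 lower (all genes 6.19% and 3.57%), with a median log2 difference of 0.55. With sAb+LatA 46 were higher and 0 lower (all genes 10.4% and 8.81%), with a median of 1.09. With iAb 48 were higher and 0 lower (all genes 15.0% and 12.6%), with a median of 1.60, or 3.02-fold. These comparisons share the naive array.

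The question the arrays address is how T cells differ when the same antibodies act in solution or on a surface, and whether LatA moves sAb-treated cells towards the iAb state. Between iAb and sAb at 3 h, 46 of 52 factors were higher and 0 lower, against 8.70% and 10.2% of all genes. The median difference was 0.99 (0.14 to 1.54) beside −0.02 over all 12345 genes. Between sAb+LatA and sAb, 15 were higher and 0 lower, against 2.47% and 3.41%. The median was 0.50 (0.04 to 0.86), and all 52 differences were above 0. Between iAb and sAb+LatA, 13 were higher and 0 lower, against 4.26% and 4.50%, with a median of 0.47. For the 46 factors called between iAb and sAb, the level with sAb+LatA lay at a median of 0.51 of the way from the sAb to the iAb level (0.23 for Gnl2 to 0.74 for Imp3, whose value depends on the probe set). These values come from the same 3 arrays and are not independent of each other. At a stricter 2-fold threshold 25 of the 46 factors remained between iAb and sAb, where 2.58% of all genes were higher. Between sAb+LatA and sAb 0 of 52 passed it, where 0.304% of all genes were higher.

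**Figure D1:**
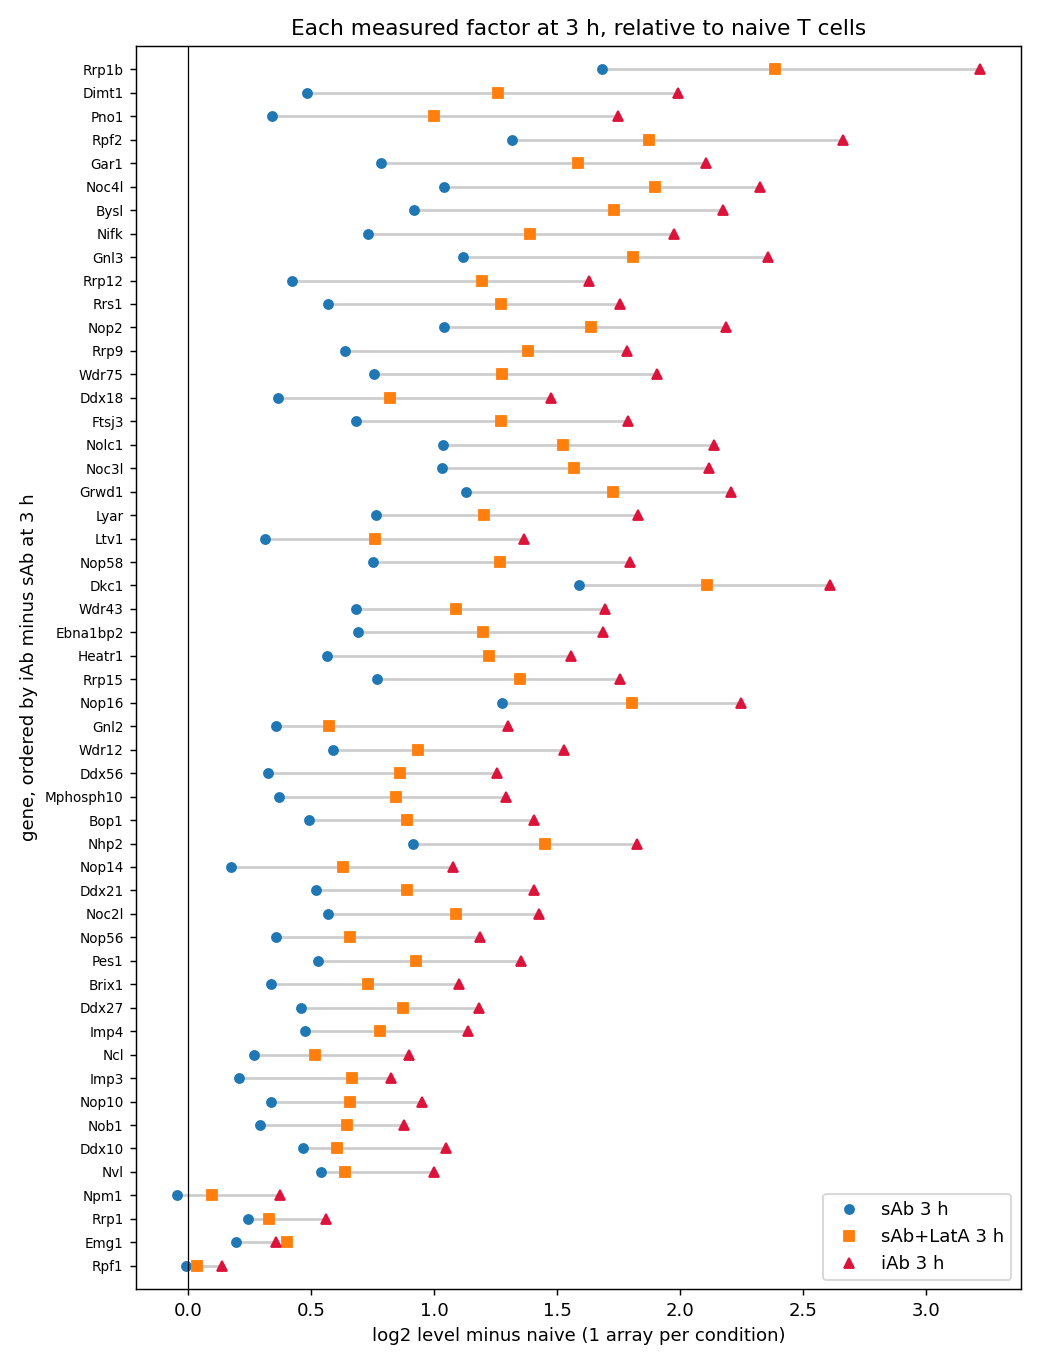
Log2 level of each of the 52 measured factors at 3 h with sAb (circles), sAb+LatA (squares) and iAb (triangles) minus its level in naive T cells, 1 array each, with genes ordered from top to bottom by iAb minus sAb. The symbols stand in the order sAb, sAb+LatA, iAb in all rows but that of Emg1, and 48 triangles are at least 1.5-fold above naive.

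The core proteins of box C/D snoRNPs, Nop56 and Nop58, were both higher at 3 h with iAb than with sAb, against 8.70% of all genes. Nop56, a scaffold of the methylation complex, had log2 levels of 9.58 in naive T cells, 9.57 with LatA alone, 9.94, 10.24 and 10.77 on the sAb, sAb+LatA and iAb arrays of 3 h, and 10.26, 10.52 and 10.47 on those of 24 h. Its difference between iAb and sAb at 3 h was 0.83 on this probe set, while its other 2 single-symbol probe sets, both lower in signal, differed by 0.03 and 0.07. When probe sets listed for several symbols were allowed too, the brightest one that names Nop56 gave −0.41. Nop58, its paralog in the same complex, differed by 1.05 (2.06-fold). The third core protein of the complex, the methyltransferase Fbl, shares its probe set with Tulp4 and has no value of its own.

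All 4 core proteins of box H/ACA snoRNPs were higher at 3 h with iAb than with sAb, against 8.70% of all genes. Their differences ran from 0.62 (Nop10) to 1.32 (Gar1). Dkc1, dyskerin, the pseudouridine synthase, stood at 7.48 and 7.71 without antibody (naive, LatA), 9.07 with sAb, 9.59 with sAb+LatA and 10.09 with iAb at 3 h, and 9.53, 9.82 and 9.99 with these stimuli at 24 h. It was 6.1-fold above naive with iAb and 3.01-fold with sAb, so it was well above naive with either format. Gar1 had levels of 6.88 on the naive array, 6.88 on the LatA array, 7.66 (sAb), 8.46 (sAb+LatA) and 8.98 (iAb) at 3 h, and 8.20 (sAb), 8.71 (sAb+LatA) and 8.66 (iAb) at 24 h. With sAb+LatA it was 1.74-fold above sAb, the third highest of the 52 factors in that comparison. Nop10 had 9.66 in naive T cells, 9.72 with LatA alone, 9.99, 10.32 and 10.61 on the sAb, sAb+LatA and iAb arrays of 3 h, and 10.54, 10.67 and 10.70 on those of 24 h, one of 6 factors that were not lower at 24 h than at 3 h with iAb. Nhp2, the remaining core protein, differed by 0.91 between iAb and sAb at 3 h.

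Of the abundant nucleolar proteins, Nolc1 moved far, and Ncl and Npm1 moved less on the probe sets used here. Ncl, nucleolin, an RNA-binding protein that acts early on pre-rRNA, had levels of 10.55 and 10.63 without antibody (naive, LatA), 10.82 with sAb, 11.06 with sAb+LatA and 11.45 with iAb at 3 h, and 11.20, 11.41 and 11.39 with these stimuli at 24 h. Npm1, nucleophosmin, a histone and protein chaperone of the outer nucleolus, had 11.13 on the naive array, 11.15 on the LatA array, 11.08 (sAb), 11.23 (sAb+LatA) and 11.51 (iAb) at 3 h, and 11.52 (sAb), 11.70 (sAb+LatA) and 11.77 (iAb) at 24 h. On this probe set Npm1 was thus not higher with sAb than in naive T cells at 3 h and was highest at 24 h. Its difference of 0.42 between iAb and sAb at 3 h was under 1.5-fold. The other Npm1 probe set, lower in signal, differed by 1.38. At 3 h it was above naive by 0.37 (sAb), 0.65 (sAb+LatA) and 1.75 (iAb). Between 24 h and 3 h with iAb it differed by -0.64. The value and the pattern of Npm1 thus depend on the probe set. Nolc1, a chaperone of snoRNPs, was 2.15-fold higher with iAb than with sAb.

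Of the 10 SSU processome factors, 9 were higher at 3 h with iAb than with sAb and 0 lower. The shares of all genes were 8.70% and 10.2%, and the median difference of the group was 0.96. Noc4l, whose yeast homolog is a partner of Nop14, led this group with levels of 7.33 in naive T cells, 7.40 with LatA alone, 8.37, 9.23 and 9.65 on the sAb, sAb+LatA and iAb arrays of 3 h, and 8.77, 9.09 and 9.07 on those of 24 h, a 2.43-fold difference between iAb and sAb. It also had the highest difference of the 52 factors between sAb+LatA and sAb, 0.86. Heatr1, the homolog of yeast Utp10, had levels of 8.44 and 8.64 without antibody (naive, LatA), 9.00 with sAb, 9.66 with sAb+LatA and 9.99 with iAb at 3 h, and 9.08, 9.37 and 9.36 with these stimuli at 24 h. Rrp9, a protein of the U3 snoRNP, had 6.68 on the naive array, 6.79 on the LatA array, 7.32 (sAb), 8.06 (sAb+LatA) and 8.46 (iAb) at 3 h, and 7.53 (sAb), 7.79 (sAb+LatA) and 7.72 (iAb) at 24 h. Both had lost more than 1.5-fold with iAb by 24 h. Emg1, which methylates a pseudouridine of the 18S rRNA, was the exception, with levels of 8.50 in naive T cells, 8.50 with LatA alone, 8.70, 8.90 and 8.86 on the sAb, sAb+LatA and iAb arrays of 3 h, and 9.11, 9.05 and 8.98 on those of 24 h. It differed by 0.17 between iAb and sAb and was highest at 24 h with sAb. The other 6, Imp3, Imp4 and Mphosph10 (which bind each other in the U3 snoRNP), Wdr43, Wdr75 and Nop14, differed by 0.62 (Imp3) to 1.15 (Wdr75). The other Imp3 probe set, only a little lower in signal (mean log2 level 9.57 beside 9.90), differed by 0.47 at 3 h, under 1.5-fold, and by 0.15 at 24 h, so the call of Imp3 depends on the probe set.

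All 6 measured factors of later 40S maturation were higher at 3 h with iAb than with sAb, against 8.70% of all genes. Their median difference was 1.24. Dimt1, which dimethylates adenines near the end of 18S rRNA, had levels of 7.10 and 7.14 without antibody (naive, LatA), 7.59 with sAb, 8.37 with sAb+LatA and 9.10 with iAb at 3 h, and 8.22, 8.41 and 8.46 with these stimuli at 24 h, 2.85-fold higher with iAb than with sAb. Pno1, the partner of the endonuclease Nob1, had 8.07 on the naive array, 8.25 on the LatA array, 8.41 (sAb), 9.07 (sAb+LatA) and 9.81 (iAb) at 3 h, and 9.14 (sAb), 9.41 (sAb+LatA) and 9.43 (iAb) at 24 h. Both were under 1.5-fold above naive with sAb at 3 h (0.48 and 0.34) and were higher with sAb at 24 h than at 3 h by 0.63 and 0.73. Bysl, bystin, needed for 18S rRNA processing, had 6.69 in naive T cells, 6.82 with LatA alone, 7.60, 8.42 and 8.86 on the sAb, sAb+LatA and iAb arrays of 3 h, and 8.0, 8.41 and 8.15 on those of 24 h. It lay 1.76-fold higher with sAb+LatA than with sAb. Nob1, which makes the last cut at the 18S end, had 8.63 and 8.49 without antibody (naive, LatA), 8.92 with sAb, 9.28 with sAb+LatA and 9.51 with iAb at 3 h, and 9.14, 9.36 and 9.33 with these stimuli at 24 h. Its difference between iAb and sAb, 0.59, was the smallest of this group and just past 1.5-fold. Rrp12, an export factor, and Ltv1, a factor of 40S particles leaving the nucleus, differed by 1.21 and 1.05.

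Of 21 measured 60S assembly factors, 18 were higher at 3 h with iAb than with sAb and 0 lower. The shares of all genes were 8.70% and 10.2%. This group had a median difference of 0.99 and held both ends of the list. Rrp1b, a homolog of yeast Rrp1, had levels of 5.93 on the naive array, 6.02 on the LatA array, 7.61 (sAb), 8.31 (sAb+LatA) and 9.15 (iAb) at 3 h, and 8.01 (sAb), 8.38 (sAb+LatA) and 8.33 (iAb) at 24 h. It was 9.33-fold above naive with iAb, the largest difference from naive of the 52 factors at either time, and 2.91-fold above sAb. Its paralog Rrp1 had 9.71 in naive T cells, 9.73 with LatA alone, 9.95, 10.03 and 10.27 on the sAb, sAb+LatA and iAb arrays of 3 h, and 9.85, 10.02 and 10.01 on those of 24 h and was called neither against naive nor against sAb at either time. Rpf2, which brings the 5S ribonucleoprotein into the 60S precursor with its partner Rrs1, had 7.19 and 7.62 without antibody (naive, LatA), 8.51 with sAb, 9.07 with sAb+LatA and 9.86 with iAb at 3 h, and 9.40, 9.61 and 9.80 with these stimuli at 24 h. Rrs1 differed by 1.19 between iAb and sAb, and Rpf2 by 1.35. A dimmer Rrs1 probe set differed by 0.80. Between sAb+LatA and sAb at 3 h this probe set differed by 0.23, beside 0.71 on the one used. Rpf2 stayed close to its 3 h level at 24 h with iAb, at -0.06.

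The PeBoW complex of Pes1, Bop1 and Wdr12 is needed for processing of the 28S and 5.8S precursor. All 3 subunits were higher at 3 h with iAb than with sAb, against 8.70% of all genes. Pes1 had levels of 9.28 on the naive array, 9.44 on the LatA array, 9.81 (sAb), 10.20 (sAb+LatA) and 10.63 (iAb) at 3 h, and 9.95 (sAb), 10.11 (sAb+LatA) and 10.11 (iAb) at 24 h. Bop1 had 7.60 in naive T cells, 7.71 with LatA alone, 8.09, 8.49 and 9.01 on the sAb, sAb+LatA and iAb arrays of 3 h, and 8.47, 8.74 and 8.77 on those of 24 h. Wdr12 differed by 0.94, close to Bop1 at 0.92 and Pes1 at 0.83. Gnl3, nucleostemin, a GTP-binding protein of the nucleolus, had 8.34 and 8.60 without antibody (naive, LatA), 9.45 with sAb, 10.14 with sAb+LatA and 10.69 with iAb at 3 h, and 9.81, 10.11 and 10.16 with these stimuli at 24 h. This was a 5.13-fold difference between iAb and naive, and its relative Gnl2 differed by 2.47-fold. Noc3l, a partner of early 60S particles, had 8.02 on the naive array, 8.22 on the LatA array, 9.06 (sAb), 9.59 (sAb+LatA) and 10.14 (iAb) at 3 h, and 8.97 (sAb), 9.14 (sAb+LatA) and 9.26 (iAb) at 24 h. It was one of the factors with the largest drop with iAb, -0.89 between 24 h and 3 h. Nvl, an AAA ATPase that removes factors from pre-60S particles, had 7.85 in naive T cells, 7.87 with LatA alone, 8.39, 8.49 and 8.85 on the sAb, sAb+LatA and iAb arrays of 3 h, and 8.50, 8.85 and 8.76 on those of 24 h. Its difference between sAb+LatA and sAb, 0.09, was among the smallest of the 52. Rpf1 had 9.59 and 9.69 without antibody (naive, LatA), 9.58 with sAb, 9.62 with sAb+LatA and 9.72 with iAb at 3 h, and 9.71, 9.71 and 9.89 with these stimuli at 24 h, within 0.31 log2 units over all arrays and called in no comparison. The other 60S factors, the methyltransferases Nop2 and Ftsj3 and Nop16, Rrp15, Noc2l, Ebna1bp2, Nifk, Brix1 and Grwd1, differed by 0.76 (Brix1) to 1.24 (Nifk) between iAb and sAb at 3 h.

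Of the 5 DEAD-box RNA helicases, 4 were higher at 3 h with iAb than with sAb, against 8.70% of all genes. Ddx21, which acts with RNA polymerase I and on snoRNAs, had levels of 9.77 on the naive array, 9.88 on the LatA array, 10.29 (sAb), 10.66 (sAb+LatA) and 11.18 (iAb) at 3 h, and 10.36 (sAb), 10.62 (sAb+LatA) and 10.65 (iAb) at 24 h. Ddx10, the homolog of yeast Dbp4, had 9.04 in naive T cells, 9.22 with LatA alone, 9.51, 9.64 and 10.09 on the sAb, sAb+LatA and iAb arrays of 3 h, and 9.02, 9.16 and 9.20 on those of 24 h, just under 1.5-fold between iAb and sAb (0.58). At 24 h Ddx10 was near its naive level with every stimulus. Ddx18, Ddx56 and Ddx27 differed between iAb and sAb by 1.11, 0.93 and 0.72. A dimmer Ddx18 probe set differed by 0.53, under 1.5-fold, so the call of Ddx18 depends on the probe set. Lyar, a zinc finger protein of the nucleolus, had 6.97 and 7.19 without antibody (naive, LatA), 7.73 with sAb, 8.17 with sAb+LatA and 8.80 with iAb at 3 h, and 8.40, 8.79 and 8.86 with these stimuli at 24 h. It was not lower at 24 h than at 3 h with iAb. By function across these groups, 3 of the 4 measured rRNA methyltransferases (Nop2, Dimt1 and Ftsj3, with Emg1 as the exception) were higher at 3 h with iAb than with sAb.

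**Figure D2:**
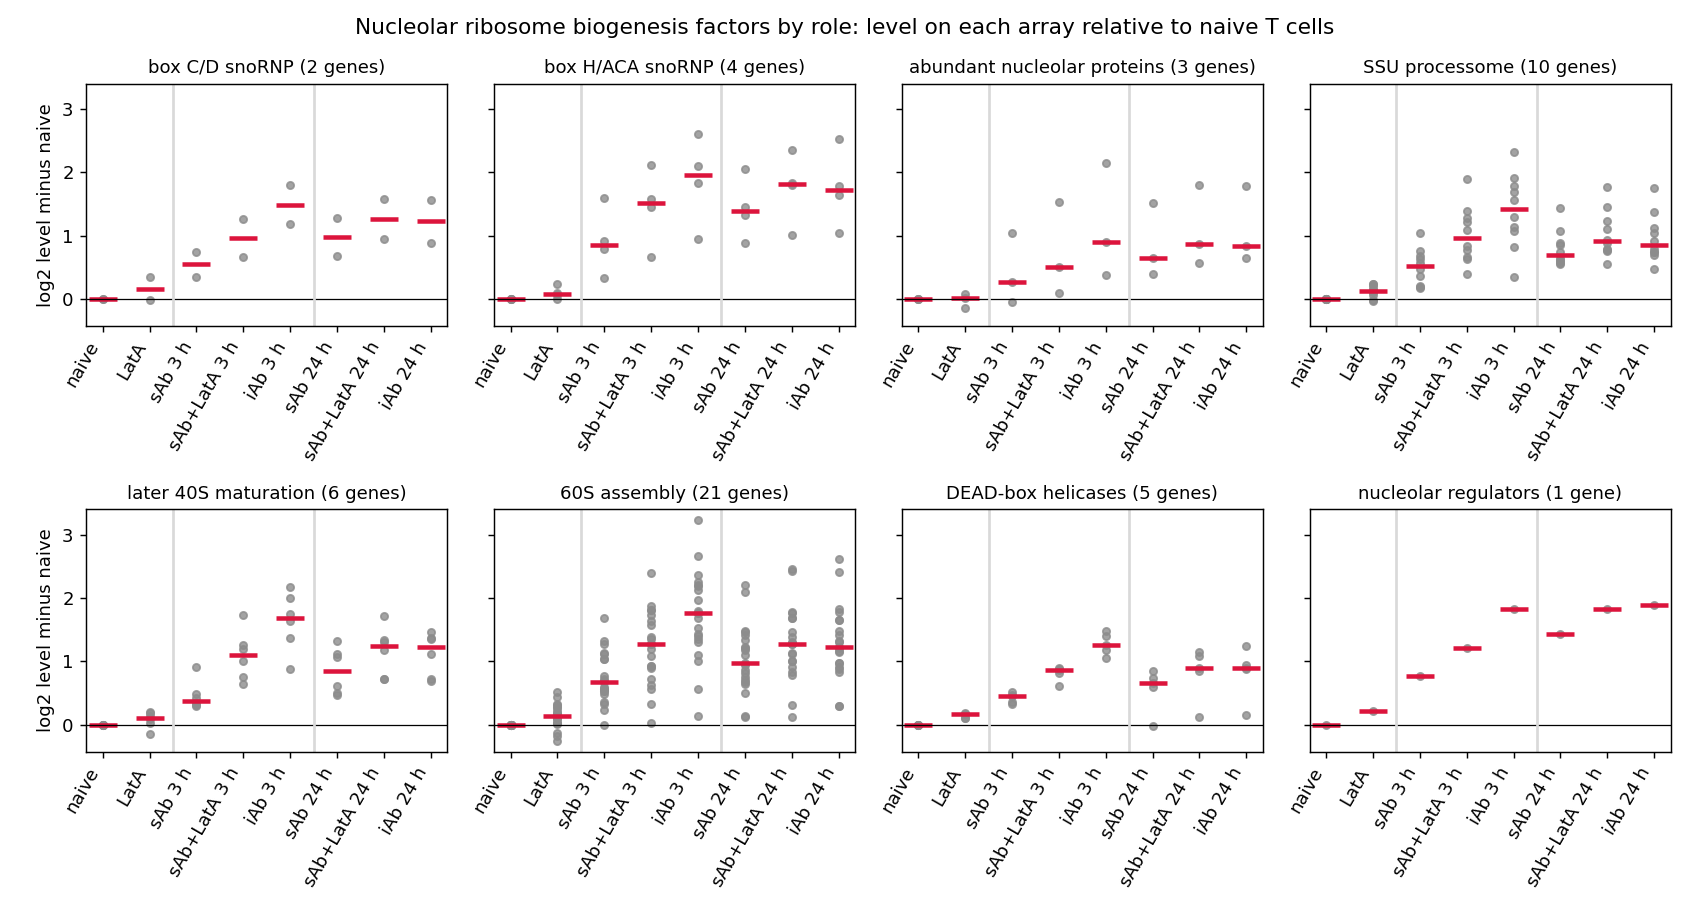
Log2 level on each of the 8 arrays minus the level in naive T cells, by role; each grey point is 1 factor on 1 array, the red bar is the median of the role, and vertical lines part the arrays without antibody, of 3 h and of 24 h. In every role the iAb bar is the highest of the 3 h bars, and the sAb bar is the lowest of the 24 h bars.

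At 24 h the differences between stimuli were small. Between iAb and sAb, 0 of 52 factors were called in either direction, against 3.22% and 2.59% of all genes, with a median difference of 0.25 (−0.13 to 0.50). Between sAb+LatA and sAb 0 were called, against 1.82% and 1.95%, with a median of 0.26. Between iAb and sAb+LatA 0 were called, against 0.963% and 1.05%, with a median of −0.01. sAb had the lowest of the 24 h levels for 50 of 52 factors (all but Imp3 and Emg1), against 39.8% of all genes. The factors remained above naive, with 43 higher and 0 lower with sAb (all genes 17.2% and 8.85%), 47 and 0 with sAb+LatA (all genes 19.7% and 11.8%) and 48 and 0 with iAb (all genes 21.2% and 12.9%). The median differences from naive were 0.86, 1.14 and 1.14.

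**Figure D3:**
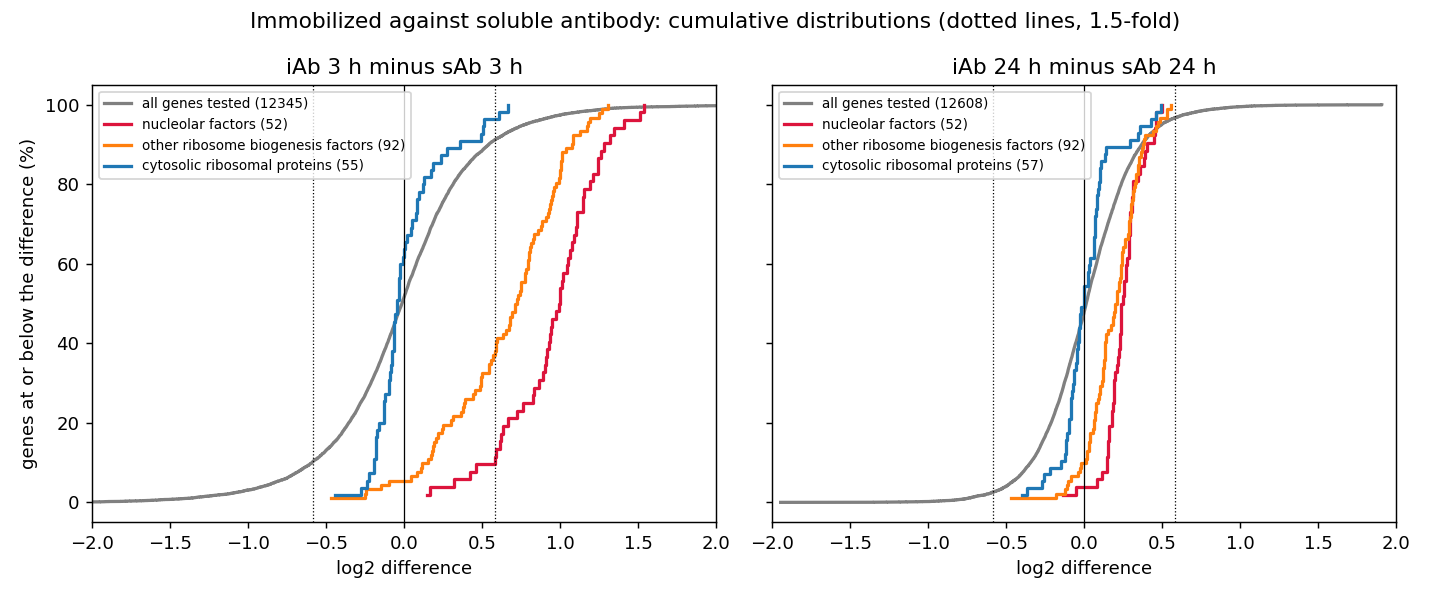
Cumulative distributions of the log2 difference between iAb and sAb at 3 h (left) and 24 h (right) for all genes tested (grey), the 52 factors (red), 92 other ribosome biogenesis factors (orange) and the cytosolic ribosomal proteins (blue); dotted lines mark 1.5-fold. At 3 h 46 of 52 factors lie right of the dotted line, and at 24 h none does.

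Between 3 h and 24 h the levels moved in opposite directions with the antibody formats. With sAb 49 of 52 factors had a higher level at 24 h (all but Rrp1, Noc3l and Ddx10), against 52.3% of all genes. The median difference was 0.37. Of the 52 factors, 4 were called higher and 0 lower, against 9.52% and 5.64% of all genes. With iAb 46 of 52 had a lower level at 24 h, against 47.2% of all genes, and the median was −0.40. Here 0 were called higher and 10 lower, against 16.1% and 9.48%. With sAb+LatA 1 was called higher and 0 lower, against 13.2% and 7.40%, and the median was 0.12. A level higher at 24 h with sAb and lower with iAb was found for 43 of 52 factors, against 16.5% of all genes. The iAb array of 3 h was the highest of all 8 for 46 factors (all but Nop10, Npm1, Emg1, Rpf1, Ddx27 and Lyar), against 16.8% of all genes. The naive or LatA array was the lowest for 49 (all but Npm1, Rpf1 and Ddx10), against 30.2%. The exceptions for Npm1 rest on the brighter of its probe sets. Centring raises the count of factors lower with iAb at 24 h from 10 to 29, and the share of all genes lower to 18.5%. It turns the sAb+LatA median to −0.021, while the sAb and iAb medians keep their signs at 0.27 and −0.63.

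**Figure D4:**
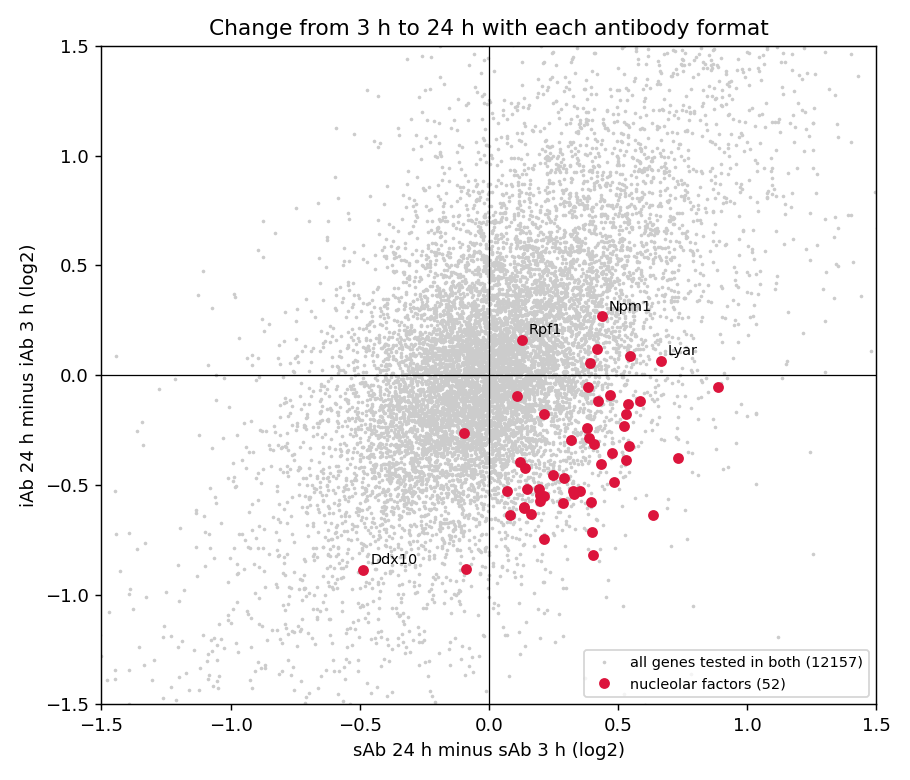
Log2 difference between 24 h and 3 h with sAb (horizontal) and with iAb (vertical) for the 52 factors (red) and for 12157 genes tested in both (grey, 11540 of them inside the axes), 1 array per condition. Of the red points, 43 lie in the lower right, higher with sAb and lower with iAb; Npm1, Rpf1 and Lyar lie above it and Ddx10 lies to its left.

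An additive model of stimulus and time, fitted with limma to the 6 arrays with antibody, gives the test used here, and it assumes that the stimulus acts alike at both times. The factors depart from this, with median differences between iAb and sAb of 0.99 at 3 h and 0.25 at 24 h. Its 2 residual degrees of freedom come from that assumption and not from replicates. For iAb against sAb, 0 of 13245 genes passed an adjusted p of 0.05 (the smallest was 0.257). At an unadjusted p under 0.05, 42 of 52 factors were higher and 0 lower, against 8.12% and 7.84% of all genes. For sAb+LatA against sAb, 0 genes passed (smallest adjusted p 0.798). At an unadjusted p under 0.05, 5 factors were higher and 0 lower, against 2.11% and 3.43%. For 24 h against 3 h, 13.2% of all genes were called higher and 7.33% lower. Of the 52 factors, 1 was called. Ddx10 fell by 0.62 ± 0.13 (SE) on the log2 scale (limma, adjusted p = 0.0241), being lower at 24 h with all 3 stimuli. Npm1, at 0.39 ± 0.11 (SE), did not pass (limma, adjusted p = 0.0583).

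The profiles of most factors over the 8 arrays were alike. Pearson's r between a factor and the mean of the other factors was at least 0.95 for 43 of 52 (median 0.97). It was lowest for Rpf1 (0.52), Ddx10 (0.54), Npm1 (0.72 on its brighter probe set) and Emg1 (0.81). These are descriptions over 8 arrays normalized by the same method. Of 3222 other genes with a range of at least 1 log2 unit, 6.42% had an r as high. So did 36 of 92 other ribosome biogenesis factors of any range (39.1%). The genes outside the lists with the highest r were Mrpl17 (a protein of the mitochondrial ribosome), Slc35f2, Nsun2 and Nsun5 (RNA methyltransferases), Tars (threonyl-tRNA synthetase), Rwdd4a, Eif2b3 (a subunit of the exchange factor of translation initiation), Ctps (CTP synthase), Rpusd2 and Xpot (the tRNA exporter), all at r of 0.99 or more. Mrpl17 had levels of 6.83 in naive T cells and 7.32 (sAb), 7.73 (sAb+LatA) and 8.12 (iAb) at 3 h.

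Of 92 other measured ribosome biogenesis factors, 57 were higher at 3 h with iAb than with sAb and 0 lower, with a median of 0.72. The shares of all genes were 8.70% and 10.2%. Between sAb+LatA and sAb 7 of these factors were higher, against 2.47% of all genes. The highest between iAb and sAb were Nat10, an RNA acetyltransferase, at 1.31, Utp20 at 1.27 and Nol10 at 1.25. The lowest were Nop53 at -0.47, the nuclear exonuclease Xrn2 at -0.25 and Utp23 at -0.25. Of 12 RNA polymerase I subunits and initiation factors, 5 were higher and 0 lower, with a median of 0.36. Of 55 cytosolic ribosomal proteins that entered the comparison of iAb and sAb at 3 h, 2 were higher and 0 lower. Their share higher was 3.64%, against 8.70% of all genes, and their median was −0.05. Against naive their medians at 3 h were 0.02 (sAb), −0.10 (sAb+LatA) and −0.06 (iAb).

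Myc, the transcription factor known to activate many ribosome biogenesis genes, had log2 levels of 8.77 in naive T cells, 8.33 with LatA alone, 10.76, 11.35 and 11.72 on the sAb, sAb+LatA and iAb arrays of 3 h, and 10.43, 10.52 and 10.48 on those of 24 h. At 3 h it stood in the order of the factors, at 0.96 between iAb and sAb. With sAb it was 1.98 above naive, where the median factor was at 0.55. Its r with the mean of the factors was 0.90 over the 8 arrays. Of the 9 genes of the Myc network that entered the comparison, Myc was higher at 3 h with iAb than with sAb. The Max partners Mxd4, Mxi1 and Mxd1 were lower, at −1.95, −0.89 and −0.63. Of all genes, 8.70% were higher and 10.2% lower. Max itself differed by 0.14.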

How the data were processed

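RNA of CD3+ T cells was measured on 8 single-channel arrays, 1 per condition. Per the methods, the authors normalized the arrays together by the robust multi-average method; the deposited table holds 1 value per probe set and array on a log2 scale, a scale read from the values. Of 41345 probe sets, 23521 are listed for 1 gene symbol, 1820 for several (not used) and 16004 are not listed; a gene with several was represented by its brightest probe set (22180 genes). Differences are between the deposited log2 values of arrays (pandas 2.3.3, Python 3.11.15). The additive fit used lmFit and eBayes of limma 3.58.1 (R 4.3.3) with Benjamini-Hochberg adjustment over the 13245 genes that 1 or more of the 6 arrays had above background. The code of the counts and of the fit was checked on simulated data with known changes. The simulated fit had the same stimulus effect at both times, so this check does not test the results above.

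The factors, gene lists and promoter motifs were chosen with earlier results of these data known. Every factor could be named; levels on every array were given for a set of reference factors chosen for their roles and for the factors at either end of the comparisons. Likeness was Pearson's r over the arrays. Alternatives were median centring, renewed quantile normalization, other background filters, the mean of a gene's probe sets, probe sets with several symbols, a 2-fold threshold and, in limma, a variance trend. The planned protein sequences were not analysed here.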

Additional observations from a re-analysis of the deposited data

Results flagged for a closer look

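Some results stood out because a pair of conditions moved in opposite directions. The median difference between 24 h and 3 h of the 52 factors was 0.37 with sAb and −0.40 with iAb. Imp3 differed between iAb and sAb by 0.62 at 3 h and −0.05 at 24 h, and Emg1 by 0.17 and −0.13. The other Imp3 probe set, with 0.47 and 0.15, did not change direction. With 1 array per condition, these differences between conditions were not tested.

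Probe sets listed for several symbols, which the counts above do not use, carried signal for the 4 factors with no probe set of their own. Between iAb and sAb at 3 h the probe set of Mrto4 and its pseudogenes differed by 1.55, that of Tsr1 and Srr by 1.10, that of Fbl and Tulp4 by 0.96 and that of Rrp8 and Ilk by 0.60. Which of the listed genes gave the signal cannot be told apart.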

How the results depend on the processing

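The result that turns most on processing is the change from 3 h to 24 h. Median centring changed the factors called higher with sAb at 24 h to 2 (all genes 7.36%), and those lower with iAb to 29 (18.5%). With sAb+LatA it gave 0 higher and 2 lower (all genes 9.00% and 11.5%) and a median of −0.021. Quantile normalization gave 7 factors higher with iAb than with sAb+LatA at 3 h (all genes 3.11%). It gave 2 higher with sAb+LatA than with sAb at 24 h (all genes 2.05%). The mean of a gene's probe sets turned the median between iAb and sAb+LatA at 24 h to 0.0048. With probe sets of several symbols, 1 factor was below naive with sAb+LatA and iAb at 3 h and with every stimulus at 24 h. The shares of all genes ran from 8.45% (sAb+LatA at 3 h) to 12.8% (iAb at 24 h). Nop56 turned to −0.41 between iAb and sAb at 3 h. At 2-fold the factors above naive at 3 h were 10 (sAb, all genes 1.66%), 27 (sAb+LatA, 4.01%) and 44 (iAb, 7.21%). At 24 h they were 21 (sAb, 7.21%), 33 (sAb+LatA, 9.60%) and 30 (iAb, 1379 of 12521 genes). With iAb at 3 h, 25 were above sAb (all genes 2.58%). Between sAb+LatA and sAb at 3 h, 0 were called (all genes 0.304% higher and 0.376% lower). Between iAb and sAb+LatA at 3 h, 0 were called (0.737% and 0.705%). In each change from 3 h to 24 h, 0 were called. The shares of all genes there were 3.23% and 1.61% (sAb), 4.82% and 2.58% (sAb+LatA), and 7.32% and 3.78% (iAb). With a variance trend, limma called 1 factor higher at 24 h than at 3 h, where 1825 of 13245 genes were. Neither the absence of a background filter nor a filter on both arrays moved a count by over 1.5 times or turned a median. No paired analysis was possible because each condition has 1 array, so no replicate numbers pair arrays; the additive fit takes time as a term. The cause was not tested.

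All 52 measured factors lay above background. Over them, the naive level and the difference between iAb and sAb at 3 h had an r of −0.60. Over 10484 other genes above background on all arrays this r was −0.16. The part of signal level in the size of the differences was not tested. With 1 array per condition, biological spread, culture and array effects cannot be told apart from the condition, and the 1.5-fold calls carry no error rate.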
